A study of Homo sapiens with 18 samples.

Results

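The activin and TGF-beta genes described here are 9 listed genes of the 60709 in the count table: the ligand genes INHBA, INHBB, TGFB1 and TGFB2, the activin antagonist gene FST, the receptor genes TGFBR1, TGFBR2 and TGFBR3, and the target gene TGFBI. They were taken by name from a list drawn up with earlier results of these data known, and all 9 passed the filter on low counts that left 15189 genes for testing. RNA was sequenced from MDA-MB-231, an established human line of triple-negative breast cancer, in 18 libraries. The control cells carried a hairpin against luciferase (sh-LUC, genotype given as WT), and the knockdown cells a hairpin against IGFBP6 (sh-IGFBP6), a gene for a binding protein of insulin-like growth factors. Wells of 800000 cells were treated 24 h after plating. The agents stayed on for 24 h, and cells received solvent alone (vehicle, 0.5% each of DMSO and ethanol), 2.5 µM erastin plus 0.5% ethanol, or with 200 µM docosahexaenoic acid (DHA, an omega-3 fatty acid) plus 0.5% DMSO. Each of the 6 groups had 3 libraries. The series sets the 2 agents, both used to induce ferroptosis, an iron-dependent death with lipid peroxidation, side by side in cells with and without the knockdown. Each hairpin is represented by a single line, so the hairpin and any other difference between the lines cannot be told apart. Whether the 3 libraries in each group are separate cultures is not said in the labels, so p-values reflect only how these libraries spread, which may be technical.

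Activins are dimers of beta subunits, beta A from INHBA and beta B from INHBB, and they signal through type II and type I receptor kinases to SMAD2 and SMAD3, as do the TGF-beta ligands through TGFBR2 and TGFBR1. Follistatin, the product of FST, binds activins and keeps them from their receptors, while betaglycan, the product of TGFBR3, presents TGF-beta 2 to the signalling receptors. In breast cancer cells the pathway is known for its part in the mesenchymal state, invasion and matrix production, and it is held in check by its own induced inhibitors, such as SMAD7 and SKIL.

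The stretches before the start sites of 3 ligand genes are shown, the genes being chosen for their levels. INHBB was without counts and TGFB2 low in vehicle-treated sh-IGFBP6 cells, and INHBA rose with both agents there. A link between these stretches and the levels was not tested. Each is the 250 bases before the RefSeq start (GRCh38.p14) on the gene's strand, 5′ to 3′. Capitals mark GC boxes (GGGCGG on either strand) and the letters TATAAA on the gene's strand or its reverse.
INHBB, chr2:120345886-120346135, plus strand: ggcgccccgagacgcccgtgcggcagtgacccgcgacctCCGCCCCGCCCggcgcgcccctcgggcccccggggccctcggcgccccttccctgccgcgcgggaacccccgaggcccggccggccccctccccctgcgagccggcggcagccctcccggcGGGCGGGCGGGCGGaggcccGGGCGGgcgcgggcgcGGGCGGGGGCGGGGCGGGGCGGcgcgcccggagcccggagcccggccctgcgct
INHBA, chr7:41703091-41703340, minus strand: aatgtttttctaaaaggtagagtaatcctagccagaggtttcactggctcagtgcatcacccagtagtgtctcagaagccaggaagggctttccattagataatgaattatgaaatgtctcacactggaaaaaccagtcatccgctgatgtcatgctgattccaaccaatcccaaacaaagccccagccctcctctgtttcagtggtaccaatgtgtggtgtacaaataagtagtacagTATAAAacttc
TGFB2, chr1:218345086-218345335, plus strand: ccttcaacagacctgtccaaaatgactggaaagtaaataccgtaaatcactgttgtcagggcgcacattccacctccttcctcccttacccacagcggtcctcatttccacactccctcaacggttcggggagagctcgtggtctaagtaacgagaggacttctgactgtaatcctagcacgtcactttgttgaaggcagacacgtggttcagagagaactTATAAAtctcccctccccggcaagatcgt
The INHBB window held 46 CpG pairs, and only 0.409% of 34943 windows of the same length had as many. It was 89.6% G or C, against a median of 58% over all windows, with 10 GC boxes, some of them overlapping, and no TATAAA. The INHBA window had 1 CpG pair, 42.8% G or C, no GC box and a TATAAA starting at position -11 from the RefSeq start. The last bases of the INHBA window, that match included, lie inside an exon drawn by GENCODE release 29. TGFB2 had 11 CpG pairs, which was also the median of all windows, no GC box, and a TATAAA at -29 from the RefSeq start. The TGFB2 window ends at 218345335, whereas GENCODE release 29 starts the gene further on, at 218346235. A GC box was present in 42.5% of all windows and a TATAAA on either strand in 10.8%. The AP-1 letters TGACTCA, the cyclic AMP element TGACGTCA and the SMAD palindrome GTCTAGAC, searched on both strands, had no match in any window of the 9 genes, and occurred in 4.22%, 1.63% and 0.183% of all windows. The shorter SMAD letters CAGACA matched in the TGFB2 window at -53 and in 2 of the 8 TGFBR1 windows, at -17 and -244, and occurred in 13.6% of all windows. A match is only a match of letters, and its absence concerns this window alone.

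The libraries held 609936 to 7977429 gene counts. The third library of sh-IGFBP6 erastin stood apart: it was the smallest, 54.4% of its counts were mitochondrial ribosomal RNA (0.0349% to 0.504% in the other libraries), and 278278 counts remained outside these, so that 1 count was worth 3.81 CPM. Results for erastin in sh-IGFBP6 cells are given with it and, in the same place, without it, except where the text says otherwise. IGFBP6 itself was at 19.4 ± 1.92 CPM (SD, n = 3) in sh-LUC and 1.39 ± 0.807 in sh-IGFBP6 cells under vehicle. VIM, CD44, ANXA1, CAV1 and AXL, markers of this line, were present in all 18 libraries, whereas no epithelial or hormone receptor marker passed 22.9 CPM (EPCAM, 6 counts in the small library, and 14.1 CPM at most in the other sh-IGFBP6 libraries) and no marker of leukocytes, endothelium or fibroblasts passed 5.67 CPM (PECAM1). Levels are CPM, counts scaled to a common library size of 1e+06 after TMM correction, and therefore shares of the measured RNA: fewer transcripts per cell and more of everything else cannot be told apart. Changes are log2 fold changes with a standard error (SE), and a gene was called when its p, adjusted over all 15189 genes and taken from the quasi-likelihood test of edgeR, was under 0.05.

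**Figure D1:**
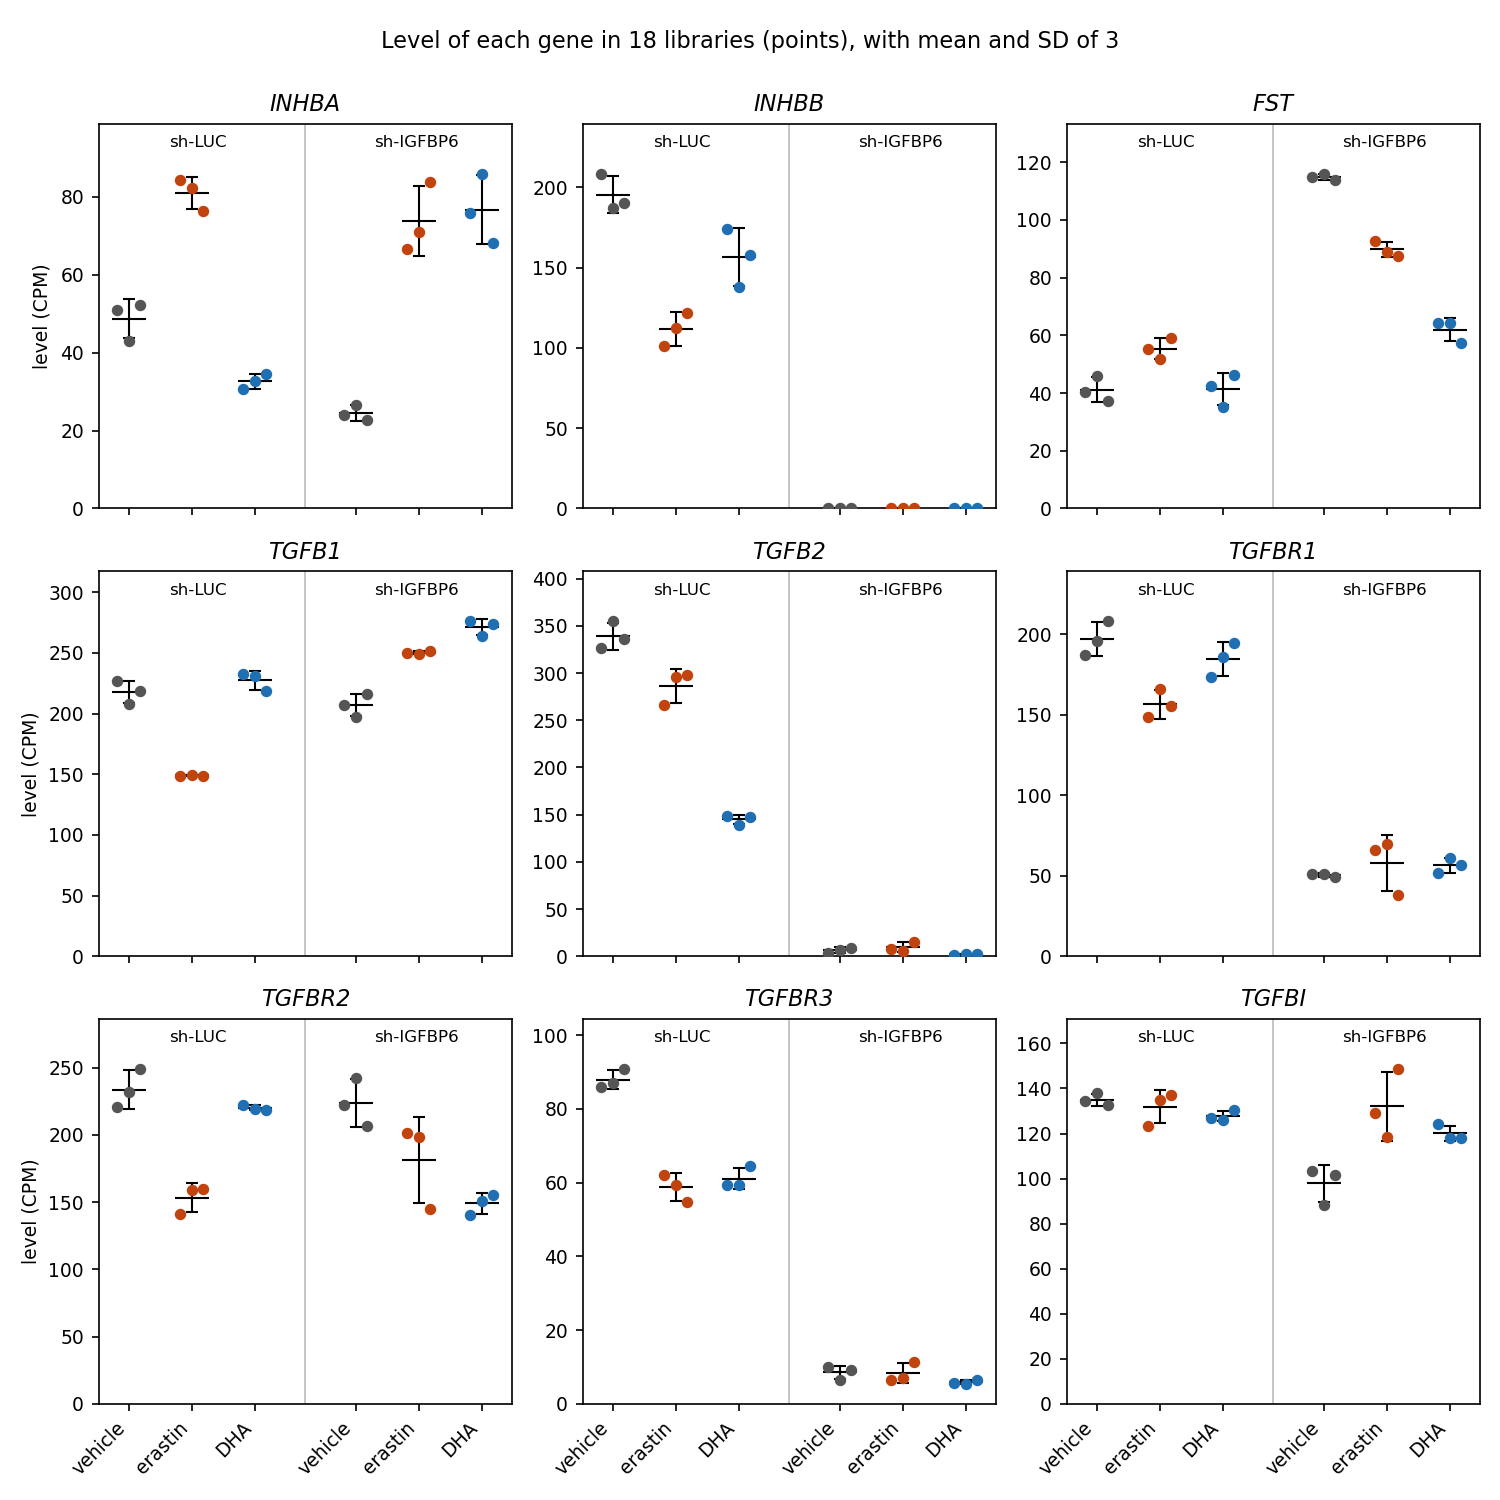
Level of each of the 9 genes (CPM, linear axes from 0) by group, with 1 point per library and the mean and SD of 3 libraries as a bar. INHBB, TGFB2, TGFBR1 and TGFBR3 separate the 2 lines completely, with all 9 sh-IGFBP6 libraries under all 9 sh-LUC libraries, while INHBA is ordered by line and treatment together.

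Under vehicle the lines differed in most of the ligand and receptor genes. Of the 9 genes, 6 were lower in sh-IGFBP6 cells, 1 was higher and 2 were not called, on a background in which 32.1% of all genes were lower and 32.5% higher. The libraries of the 2 groups did not overlap for 7 of the 9, and for 67.3% of all genes tested. Per kilobase of merged exons, the levels in sh-LUC cells were 67.3 ± 2.86 CPM per kb for TGFB1, 65.8 ± 2.80 for TGFB2 and 60.9 ± 3.59 for INHBB, followed by 49.7 ± 3.05 for TGFBR2 and 28.8 ± 1.55 for TGFBR1 (SD, n = 3). INHBA was the lowest of the 9 at 5.87 ± 0.604 CPM per kb, over 8.302 kb of exons merged from all annotated transcripts. In sh-IGFBP6 cells TGFB1 (63.9 ± 2.90) and TGFBR2 (47.6 ± 3.81) led the list, FST (38.7 ± 0.352) came next, and INHBB was without a count.

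INHBB (ENSG00000163083.6, chromosome 2, 120346143 to 120351808, plus strand, GENCODE 29 on GRCh38), the activin beta B subunit gene, was the most extreme. Its level under vehicle was 208, 187 and 190 CPM in the sh-LUC libraries, and no count was found in any of the 3 sh-IGFBP6 libraries. Against a floor of 3 counts over that group it was at least 814-fold lower (edgeR adjusted p = 8.04e-55). Over all 9 sh-IGFBP6 libraries the gene had 3 counts, all in the first erastin library (0.405 CPM), so no fold after treatment is given in that line. In sh-LUC cells INHBB was at 101, 113 and 122 CPM after erastin and at 174, 138 and 158 after DHA. Both treated groups lay entirely under vehicle. It fell by 0.80 on the log2 scale with erastin (SE 0.071, edgeR adjusted p = 1.31e-16) and by 0.32 with DHA (SE 0.069, edgeR adjusted p = 0.00024), and the 3 sh-LUC groups did not overlap.

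The tested genes within 500 kb of INHBB were not all at 0. TMEM185B was slightly higher in vehicle-treated sh-IGFBP6 cells (log2 fold change 0.26 with SE 0.091, edgeR adjusted p = 0.00797), and PTPN4 (-0.39, SE 0.13), RALB (-0.64, SE 0.12) and EPB41L5 (-1.79, SE 0.15) were lower but counted. All of these lie before INHBB on the chromosome. GLI2, a transcription factor gene of the hedgehog pathway, lies 383.8 kb after INHBB and was the only tested gene on that side. It had 15.2 CPM in sh-LUC and no count in sh-IGFBP6 cells under vehicle. These neighbours were looked at after the INHBB values were seen.

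INHBA (ENSG00000122641.11, chromosome 7, 41667168 to 41705834, minus strand), the beta A subunit gene, gave the clearest difference between the lines in response. In sh-LUC cells its level was 51.0, 43.0 and 52.2 CPM under vehicle, 84.3, 82.3 and 76.3 after erastin and 30.7, 32.7 and 34.5 after DHA. The 3 groups did not overlap, with erastin above and DHA under vehicle. INHBA rose by 0.73 with erastin (SE 0.087, edgeR adjusted p = 1.49e-12) and fell by 0.58 with DHA (SE 0.098, edgeR adjusted p = 1.13e-06) in these cells. The sh-IGFBP6 libraries had 24.1, 26.6 and 22.6 CPM under vehicle, 66.7, 71.0 and 83.8 after erastin and 76.0, 86.0 and 68.2 after DHA. Here both treated groups lay far above vehicle and overlapped each other. The rise was 1.49 with erastin (SE 0.11, edgeR adjusted p = 9.43e-25; 1.48 without the third erastin library) and 1.66 with DHA (SE 0.1, edgeR adjusted p = 2.44e-30), 2.81-fold and 3.16-fold. Under vehicle INHBA was 1.98-fold lower in sh-IGFBP6 than in sh-LUC cells (log2 fold change -0.99 with SE 0.11, edgeR adjusted p = 1.33e-13).

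DHA thus moved INHBA in opposite directions in the lines. The difference between the lines in the DHA response was 2.24 on the log2 scale (SE 0.14, edgeR adjusted p = 9.62e-28), and every sh-LUC DHA library lay under every sh-LUC vehicle library and every sh-IGFBP6 DHA library above every sh-IGFBP6 vehicle library. For erastin, which raised INHBA in both lines, the difference was 0.76 (SE 0.14, edgeR adjusted p = 6.51e-06; 0.73 without the third erastin library). Because these differences use each line's own vehicle, the lower starting level in sh-IGFBP6 cells enters both. Set directly against erastin, DHA gave 1.31 log2 less INHBA in sh-LUC cells (log2 fold change -1.31 with SE 0.079, edgeR adjusted p = 1.46e-30). No such difference was called in sh-IGFBP6 cells (0.17, 95% interval -0.02 to 0.36, edgeR adjusted p = 0.141; also 0.17 without the third library). From the highest mean to the lowest, the order of the 6 groups was sh-LUC erastin, sh-IGFBP6 DHA, sh-IGFBP6 erastin, sh-LUC vehicle, sh-LUC DHA and sh-IGFBP6 vehicle, and only the first 3 overlapped with their neighbours.

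FST (ENSG00000134363.12, chromosome 5, 53480409 to 53487134, plus strand), the follistatin gene, went the other way between the lines. Its level under vehicle was 40.3, 46.0 and 37.4 CPM in sh-LUC cells and 114.7, 116.0 and 114.0 in sh-IGFBP6 cells. The groups were far apart, 2.80-fold (log2 fold change 1.49 with SE 0.09, edgeR adjusted p = 3.14e-31). Erastin took FST to 55.3, 51.8 and 59.2 CPM in sh-LUC cells, a rise of 0.44 (SE 0.094, edgeR adjusted p = 4.67e-05), and to 92.6, 89.0 and 87.6 CPM in sh-IGFBP6 cells, where it fell by 0.34 (SE 0.08, edgeR adjusted p = 0.000354; -0.33 without the third erastin library). After DHA the sh-IGFBP6 libraries had 64.3, 64.3 and 57.5 CPM, all under vehicle and under erastin, and FST fell by 0.89 (SE 0.079, edgeR adjusted p = 1.66e-18). In sh-LUC cells DHA left 42.5, 35.2 and 46.1 CPM, overlapping vehicle, with a log2 fold change of -0.001 and a 95% interval of -0.21 to 0.21 (edgeR adjusted p = 1). The response of FST differed between the lines by -0.77 for erastin (SE 0.12, edgeR adjusted p = 1.7e-07) and by -0.88 for DHA (SE 0.13, edgeR adjusted p = 6.55e-09), and the erastin value was -0.79 without the third erastin library.

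The ratio of INHBA to FST counts per kb, taken within each library and so free of scaling between libraries, put these movements together. In vehicle-treated cells it was 0.452, 0.334 and 0.500 in the sh-LUC libraries and 0.0751, 0.0820 and 0.0711 in the sh-IGFBP6 libraries. The knockdown line thus started with far less INHBA per FST, and the groups did not overlap. In sh-IGFBP6 cells the ratio was 0.295 ± 0.0431 after erastin (0.271 without the third library) and 0.442 ± 0.0314 after DHA (SD, n = 3), each library being above all vehicle libraries. The sh-LUC libraries had 0.525 ± 0.0564 after erastin, overlapping vehicle, and 0.286 ± 0.0399 after DHA, where all libraries lay just under vehicle. After DHA the order of the lines was therefore turned, with every sh-IGFBP6 library above every sh-LUC library. These ratios are given without a test.

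**Figure D2:**
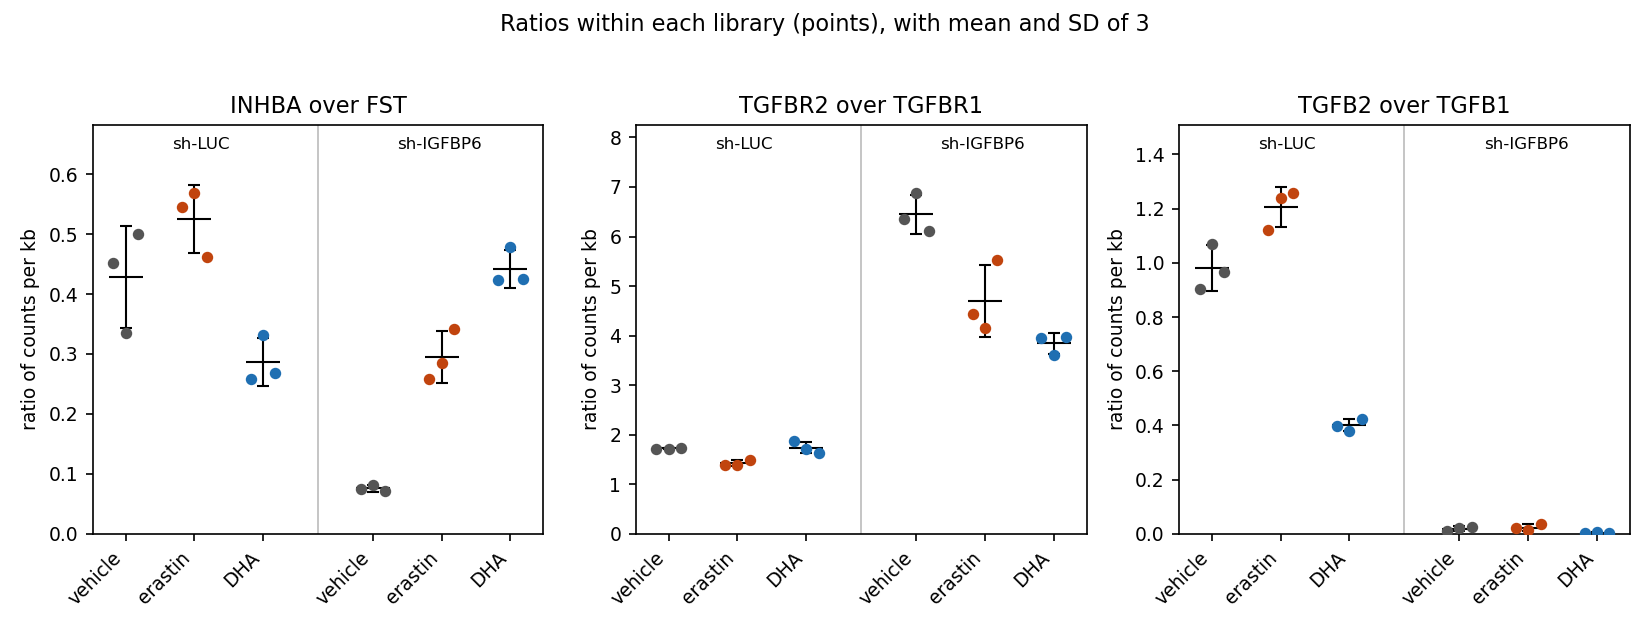
Ratios of counts per kb of merged exons within each library for INHBA over FST, TGFBR2 over TGFBR1 and TGFB2 over TGFB1 (linear axes from 0, points for libraries, bars for the mean and SD of 3). The INHBA to FST ratio rises from 0.0760 to 0.442 with DHA in sh-IGFBP6 cells and goes from 0.429 to 0.286 in sh-LUC cells.

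Of the TGF-beta ligand genes, TGFB2 was nearly absent from the knockdown line, while TGFB1 did not differ detectably between the lines under vehicle. TGFB2 (ENSG00000092969.12, chromosome 1, 218346235 to 218444619, plus strand) was at 326, 355 and 336 CPM in sh-LUC cells under vehicle and at 3.31, 6.94 and 9.11 CPM in sh-IGFBP6 cells, the latter from 11, 36 and 37 counts. This was 50.7-fold lower (log2 fold change -5.66 with SE 0.11, edgeR adjusted p = 1.3e-71). DHA lowered TGFB2 in both lines, to 148, 139 and 147 CPM in sh-LUC cells (log2 fold change -1.23 with SE 0.064, edgeR adjusted p = 2.26e-32). In sh-IGFBP6 cells it left 1.502, 2.62 and 2.01 CPM, from 5, 18 and 8 counts (log2 fold change -1.60 with SE 0.29, edgeR adjusted p = 2.01e-06). Neither DHA group overlapped its vehicle group, and the responses of the lines were not called different (-0.38, 95% interval -1.02 to 0.27, edgeR adjusted p = 0.418). Erastin gave 266, 295 and 298 CPM in sh-LUC cells, a fall of 0.24 (SE 0.061, edgeR adjusted p = 0.000497). After erastin the sh-IGFBP6 libraries had 7.97, 5.04 and 15.2 CPM, overlapping vehicle and not called (0.07, 95% interval -0.43 to 0.56, edgeR adjusted p = 0.865), the last of these from 4 counts of the small library, without which the log2 fold change was 0.03. GENCODE places the short gene TGFB2-OT1 over 1371 bases of TGFB2 exons on the same strand, and it had 0 counts.

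TGFB1 (ENSG00000105329.11, chromosome 19, 41301587 to 41353911, minus strand) shares 215 exonic bases with HNRNPUL1 on the opposite strand. No source used here gives the strand setting of the counting, so TGFB1 counts from these bases may be too high or too low. Under vehicle its level was 227, 208 and 218 CPM in sh-LUC cells and 207, 198 and 216 in sh-IGFBP6 cells. The groups overlapped (log2 fold change -0.07, 95% interval -0.20 to 0.06, edgeR adjusted p = 0.281). After erastin the sh-LUC libraries all had 149 to 150 CPM (148.953, 149.753 and 148.940), and TGFB1 fell by 0.54 (SE 0.059, edgeR adjusted p = 2.05e-14). The sh-IGFBP6 libraries went to 249.7, 249.5 and 251.4 CPM, above all vehicle libraries, a rise of 0.27 (SE 0.062, edgeR adjusted p = 0.000209; 0.27 without the third library), although scaling by library size alone turned it to -0.07 (edgeR adjusted p = 0.868). The erastin responses of the lines thus differed by 0.82 (SE 0.085, edgeR adjusted p = 2.4e-14; 0.80 without the third library). DHA gave 276, 264 and 274 CPM in sh-IGFBP6 cells, a rise of 0.39 (SE 0.058, edgeR adjusted p = 1.03e-08). In sh-LUC cells DHA was not called at 233, 231 and 219 CPM (0.06, 95% interval -0.06 to 0.19, edgeR adjusted p = 0.518). The difference between the DHA responses was 0.32 (SE 0.081, edgeR adjusted p = 0.00128).

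The ratio of TGFB2 to TGFB1 counts per kb was 0.981 ± 0.0838 in sh-LUC cells under vehicle, 1.21 ± 0.0736 after erastin and 0.401 ± 0.0219 after DHA. In sh-IGFBP6 cells it was 0.0195 ± 0.00850, 0.0236 ± 0.0131 and 0.00476 ± 0.00142 (SD, n = 3), with 0.0164 after erastin when the third library was left out. Under vehicle the control line carried about equal levels of these ligand transcripts per length, and after DHA less TGFB2 than TGFB1. In each group of the knockdown line TGFB2 was a small fraction of TGFB1.

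Under vehicle the receptor genes separated into a type II receptor gene not called different between the lines and 2 receptor genes lower in sh-IGFBP6 cells. TGFBR1 (ENSG00000106799.13, chromosome 9, 99104038 to 99154192, plus strand), the type I receptor kinase, had 187, 196 and 208 CPM in sh-LUC and 50.9, 51.3 and 49.2 CPM in sh-IGFBP6 cells under vehicle. It was 3.91-fold lower in the latter (log2 fold change -1.97 with SE 0.078, edgeR adjusted p = 4.81e-48). Erastin moved it in opposite directions, to 148, 166 and 155 CPM in sh-LUC cells (log2 fold change -0.33 with SE 0.063, edgeR adjusted p = 3.58e-06) and to 66.0, 69.5 and 38.1 CPM in sh-IGFBP6 cells (0.40, SE 0.091, edgeR adjusted p = 0.00025). The last sh-IGFBP6 value comes from the small library and lies under vehicle, so the groups overlapped, and without it the log2 fold change was 0.42. The difference between the lines was 0.73 (SE 0.11, edgeR adjusted p = 4.36e-08), with and without that library. DHA was called in neither line, with 174, 186 and 194 CPM in sh-LUC and 51.7, 61.0 and 57.0 CPM in sh-IGFBP6 cells. The intervals were -0.23 to 0.04 and -0.01 to 0.37 (95%), with edgeR adjusted p = 0.333 and 0.106.

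TGFBR2 (ENSG00000163513.19, chromosome 3, 30606502 to 30694142, plus strand), the type II kinase that binds TGF-beta first, was at 220, 232 and 249 CPM in sh-LUC and at 223, 242 and 207 CPM in sh-IGFBP6 cells under vehicle. These overlapped (log2 fold change -0.06, 95% interval -0.20 to 0.07, edgeR adjusted p = 0.382). Erastin lowered it more in sh-LUC cells and DHA more in sh-IGFBP6 cells. In sh-LUC cells erastin gave 141, 159 and 160 CPM, a fall of 0.61 (SE 0.062, edgeR adjusted p = 1.01e-15), and DHA 223, 220 and 219 CPM, which was not called (95% interval -0.22 to 0.04, edgeR adjusted p = 0.352). In sh-IGFBP6 cells DHA gave 141, 151 and 156 CPM, a fall of 0.59 (SE 0.064, edgeR adjusted p = 7.01e-14). Erastin there gave 201, 198 and 145 CPM (log2 fold change -0.19 with SE 0.067, edgeR adjusted p = 0.0201), a call that was lost without the third erastin library (-0.16, edgeR adjusted p = 0.0504), without the second erastin library (0.0623) and without the second vehicle library (-0.13, edgeR adjusted p = 0.225). The responses of the lines differed by 0.42 for erastin (SE 0.091, edgeR adjusted p = 0.000137; also 0.42 without the third library) and by -0.50 for DHA (SE 0.088, edgeR adjusted p = 3.48e-06), in opposite directions.

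TGFBR3 (ENSG00000069702.11, chromosome 1, 91680343 to 91906335, minus strand), the betaglycan gene, had 86.0, 87.2 and 90.8 CPM in sh-LUC and 9.94, 6.55 and 9.11 CPM in sh-IGFBP6 cells under vehicle, 10.6-fold lower (log2 fold change -3.41 with SE 0.13, edgeR adjusted p = 5.14e-51). In sh-LUC cells both agents lowered it, to 62.2, 59.4 and 54.7 CPM with erastin (log2 fold change -0.59 with SE 0.08, edgeR adjusted p = 2.58e-10) and to 59.4, 59.4 and 64.6 CPM with DHA (-0.53, SE 0.079, edgeR adjusted p = 3.54e-08). The agents overlapped each other. In sh-IGFBP6 cells DHA gave 5.71, 5.38 and 6.52 CPM (log2 fold change -0.52, SE 0.21), at the edge of the threshold with an edgeR adjusted p of 0.0482, and this call was lost in 18 of 27 alternatives, among them the omission of vehicle replicate 1 or 3 (edgeR adjusted p = 0.198 and 0.146) and of DHA replicate 2 (0.211). Erastin there, at 6.62, 7.14 and 11.4 CPM, was not called (log2 fold change -0.26, 95% interval -0.72 to 0.20, edgeR adjusted p = 0.39; -0.28 without the third library).

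The ratio of TGFBR2 to TGFBR1 counts per kb sets the transcripts of these receptors side by side without any scaling between libraries. It was 1.73 ± 0.0134 in sh-LUC cells under vehicle, 1.43 ± 0.0627 after erastin and 1.74 ± 0.116 after DHA. In sh-IGFBP6 cells it was 6.45 ± 0.393, 4.71 ± 0.727 (4.29 without the third library) and 3.85 ± 0.209 (SD, n = 3), so that each sh-IGFBP6 library was above all sh-LUC libraries and both agents gave lower ratios than vehicle in all libraries of that line.

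TGFBI (ENSG00000120708.17, chromosome 5, 136028895 to 136063818, plus strand), a matrix protein gene named for its induction by TGF-beta, was lower in sh-IGFBP6 cells under vehicle and was raised there by both agents. Its level was 134, 138 and 133 CPM in sh-LUC and 104, 88.5 and 101 CPM in sh-IGFBP6 cells (log2 fold change -0.47 with SE 0.072, edgeR adjusted p = 5.71e-09). In sh-IGFBP6 cells it reached 129, 118 and 149 CPM with erastin, a rise of 0.37 (SE 0.075, edgeR adjusted p = 3.14e-05; 0.36 without the third library), and 124, 118 and 118 CPM with DHA, a rise of 0.30 (SE 0.071, edgeR adjusted p = 0.000305). Neither treated group overlapped vehicle. In sh-LUC cells the levels ranged from 123 to 138 CPM over all 9 libraries, and neither erastin (95% interval -0.18 to 0.11, edgeR adjusted p = 0.718) nor DHA (-0.22 to 0.06, 0.475) was called. The responses differed between the lines by 0.40 for erastin (SE 0.1, edgeR adjusted p = 0.000928; 0.37 without the third library) and 0.38 for DHA (SE 0.097, edgeR adjusted p = 0.00161).

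**Figure D3:**
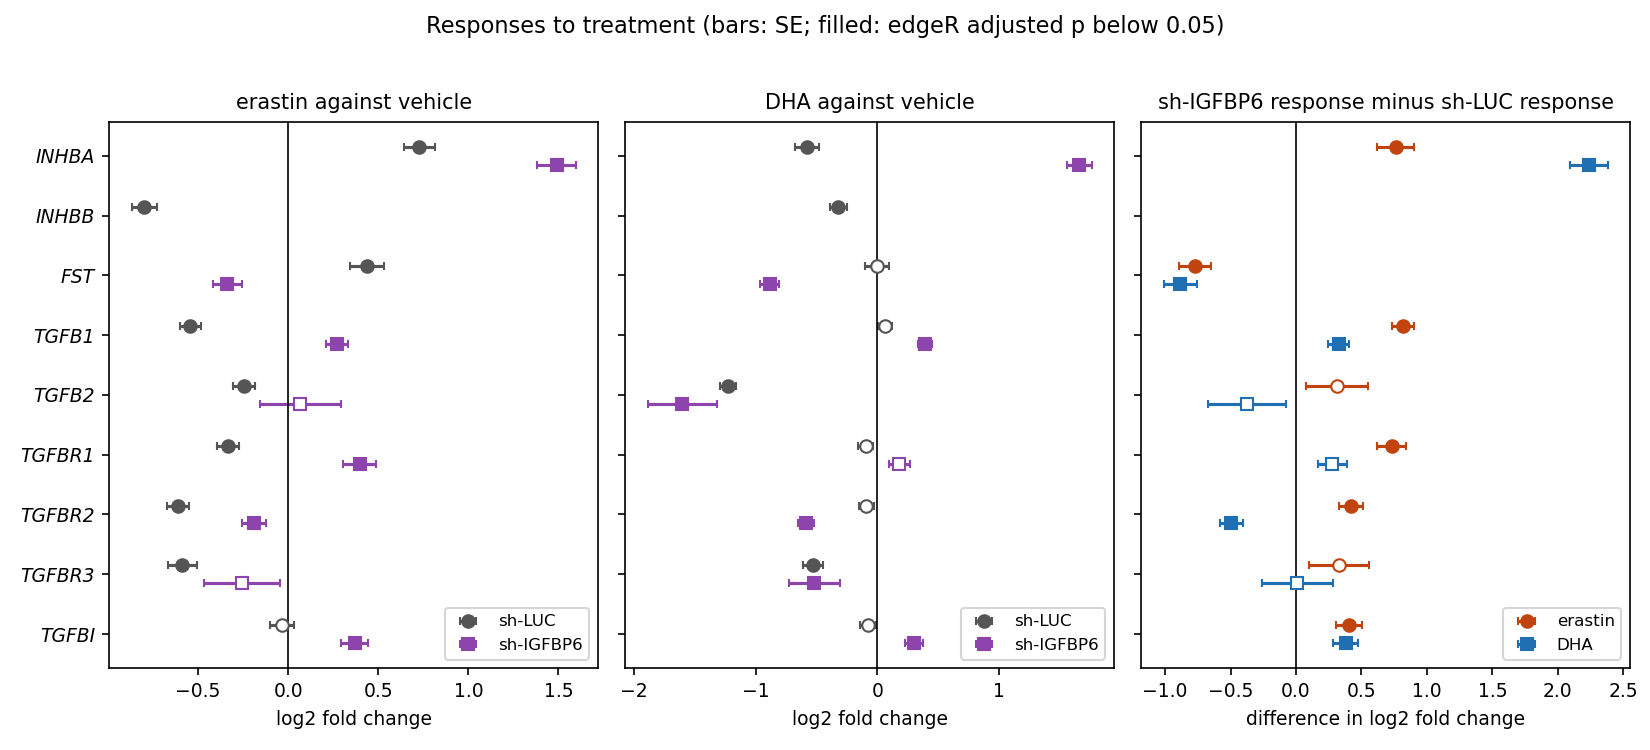
Log2 fold changes against vehicle (left, erastin; middle, DHA) in sh-LUC and sh-IGFBP6 cells, and the difference between the lines in each response (right), with SE bars; filled symbols were called at an edgeR adjusted p below 0.05, and the horizontal scales differ. INHBA after DHA lies at -0.58 in sh-LUC and 1.66 in sh-IGFBP6 cells, and FST, TGFB1 and TGFBR1 lie on opposite sides of 0 after erastin. INHBB is drawn for sh-LUC only, since sh-IGFBP6 cells had at most 3 counts per group.

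Counted over the 9 genes, erastin in sh-LUC cells lowered 6 and raised 2, where 24.4% and 21.4% of all genes were lower and higher. In sh-IGFBP6 cells erastin raised 4 and lowered 2 (background 14.7% and 14.3%), and without the third erastin library 5 of the 9 were called in place of 6. DHA lowered 4 and raised 0 in sh-LUC cells, on a background of 9.63% and 7.14%. In sh-IGFBP6 cells DHA raised 3 and lowered 4, against 17.4% and 16.8% of all genes. The difference between lines was called for 6 genes with erastin, 5 upward and 1 downward (14.1% and 12% of all genes), and for 5 with DHA, 3 upward and 2 downward (10.4% and 10.2%). DHA against erastin gave 4 higher and 3 lower in sh-LUC cells (26% and 24.2% of all genes) and 0 higher and 3 lower in sh-IGFBP6 cells (13.1% and 12.8%). Scaling by library size alone, which leaves the ribosomal RNA of the small library in the divisor, ended part of these calls. The calls lost were FST, TGFB2 and TGFBR1 for erastin and INHBB for DHA in sh-LUC cells, TGFB1, TGFBR1, TGFBR2 and TGFBI for erastin and TGFB1, TGFBR3 and TGFBI for DHA in sh-IGFBP6 cells, and TGFBI between the vehicle-treated lines. The same held for TGFB1, TGFBR2 and TGFBI in both differences between lines and for TGFBR1 in that of erastin, and, in DHA against erastin, for FST in both lines, TGFBR1 in sh-LUC and TGFBR2 in sh-IGFBP6 cells. No INHBA call was lost under that scaling. Without the small library, library size alone ended 2 calls, those of TGFB1 and TGFBI in the difference between the DHA responses (an alternative chosen after seeing the data). Comparisons within a line share its vehicle libraries, and both differences between lines share those of both lines.

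The direct comparison of the agents separated the genes further. In sh-LUC cells DHA left more TGFB1 (log2 fold change 0.61, SE 0.055), TGFBR2 (0.52, SE 0.059), INHBB (0.48, SE 0.067) and TGFBR1 (0.24, SE 0.059) than erastin, and less INHBA, TGFB2 (-0.98, SE 0.062) and FST (-0.44, SE 0.08), with edgeR adjusted p-values from 1.46e-30 to 0.000371. In sh-IGFBP6 cells DHA gave less TGFB2 (-1.67, SE 0.28, edgeR adjusted p = 1.35e-06), FST (-0.55, SE 0.085, edgeR adjusted p = 9.29e-08) and TGFBR2 (-0.39, SE 0.068, edgeR adjusted p = 1.55e-06), although the TGFBR2 groups overlapped. Without the small library these values were -1.65, -0.57 and -0.44, and TGFBR1 was also called lower (-0.25, edgeR adjusted p = 0.0214). TGFB2 and FST were the genes lower with DHA than with erastin in both lines. The doses, 200 µM and 2.5 µM, are not matched, and the contrast is between these 2 treatments as given.

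A wider list of 79 pathway genes, 63 of them tested, was followed beside the 9. Under vehicle 39 of the 63 were lower in sh-IGFBP6 cells and 11 higher (32.1% and 32.5% of all genes), with a median log2 fold change of -0.75 against 0.01 over all genes tested. The genes that hold TGF-beta latent, release it or bind ligands outside the cell were 11 lower and 0 higher of 13 tested (median -1.22). Among them THBS1, which encodes a secreted activator of latent TGF-beta, had 7695 ± 432 CPM in sh-LUC and 213 ± 20.2 CPM in sh-IGFBP6 cells (log2 fold change -5.18 with SE 0.086, edgeR adjusted p = 4.78e-88). The latent TGF-beta binding protein genes LTBP3 (192 ± 9.75 against 22.4 ± 4.06 CPM) and LTBP1 (248 ± 11.7 against 63.9 ± 4.41 CPM) were lower as well. The SMAD group had 5 lower and 2 higher of 8, with SMAD3, a receptor-activated SMAD, at 246 ± 21.1 against 134 ± 8.26 CPM (log2 fold change -0.88 with SE 0.066, edgeR adjusted p = 2.19e-24). The other receptors divided, 3 higher and 2 lower of 8. ENG, the endoglin co-receptor gene, was lower, at 87.2 ± 3.23 against 16.4 ± 2.06 CPM, and the BMP receptor gene BMPR2 was lower too (-1.35, SE 0.067), while the activin type I receptor gene ACVR1B was higher (0.83, SE 0.13, edgeR adjusted p = 1.49e-08). ACVRL1 had 27 counts in vehicle-treated sh-IGFBP6 cells and 0 in sh-LUC cells, at least 7.39-fold higher against 3 counts over the group.

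Of the 12 tested genes listed under negative feedback, 8 were lower in vehicle-treated sh-IGFBP6 cells and 1 was higher (median -0.94). Among all genes tested 32.1% were lower and 32.5% higher. PMEPA1, a feedback inhibitor gene, had 1249 counts over the sh-LUC and 1 over the sh-IGFBP6 vehicle libraries, a ratio of 1521 (95% counting interval 272 to 60100). SMAD6 was at 141 ± 7.95 against 3.87 ± 0.559 CPM and SKIL, a repressor of SMAD transcription, at 80.5 ± 5.09 against 22.4 ± 1.49 CPM. The gene of this list that was higher was USP15 (log2 fold change 0.65, SE 0.091), which encodes a deubiquitinase and is not itself an inhibitor of the pathway. The other target genes gave 14 lower and 4 higher of 21 (median -1.22), on the same background. The matrix genes COL5A1 (664 ± 38.1 against 1.68 ± 0.909 CPM) and FN1 (2021 ± 21.2 against 280 ± 15.8 CPM) were lower, and LOX (63.8 ± 4.24 against 188 ± 8.11 CPM), SPHK1 (12.99 ± 2.68 against 60.3 ± 4.04 CPM) and IL11 were among those higher. 

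Erastin in sh-LUC cells gave 19 higher and 24 lower of the 63 (21.4% and 24.4% of all genes), with a median of -0.10 against -0.02 over all genes. In sh-IGFBP6 cells it gave 29 higher and 4 lower (14.7% and 14.3% of all genes), with a median of 0.25 against 0, and the counts were also 29 and 4 without the third library. No test of the lists themselves was made. Scaling by library size alone turned the sign of 5 of the 33 genes called after erastin in sh-IGFBP6 cells (ITGAV, TRIM33, SKI, FN1 and ITGA5). DHA gave 11 higher and 21 lower in sh-LUC cells (7.14% and 9.63% of all genes, median -0.12) and 29 higher and 13 lower in sh-IGFBP6 cells (17.4% and 16.8%, median 0.24). The difference between the lines was called upward for 28 and downward for 5 genes with erastin (14.1% and 12% of all genes; 28 and 4 without the third library), and upward for 25 and downward for 3 with DHA (10.4% and 10.2%). The feedback list in sh-LUC cells had 4 higher and 5 lower of 12 after erastin, and 3 higher and 4 lower after DHA. In sh-IGFBP6 cells the genes of the feedback list were 8 higher and 1 lower of 12 after erastin, with and without the third library. After DHA they were 7 higher and 2 lower. SKIL there went from 22.4 ± 1.49 CPM to 65.7 ± 15.7 with erastin (log2 fold change 1.35 with SE 0.11, edgeR adjusted p = 3.97e-20; 56.7 CPM and 1.33 without the third library) and 67.4 ± 8.20 with DHA (1.58, SE 0.1, edgeR adjusted p = 3.68e-27). SMAD7, which blocks the type I receptor, went from 9.53 ± 3.84 CPM to 22.4 ± 0.600 (22.2 without the third library) and 30.8 ± 1.26 (SD, n = 3). In sh-LUC cells SMAD7 had 41.6 ± 2.79 CPM under vehicle, 33.3 ± 2.64 after erastin and 33.0 ± 5.10 after DHA. SKIL was lower in sh-LUC cells after DHA, at 57.2 ± 5.97 against 80.5 ± 5.09 CPM under vehicle (log2 fold change -0.49 with SE 0.083, edgeR adjusted p = 1.08e-06).

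Of the target genes, 10 of 21 were higher and 0 lower after erastin in sh-IGFBP6 cells, with and without the third library (14.7% and 14.3% of all genes), and 12 higher and 4 lower after DHA (17.4% and 16.8%). The sh-LUC cells had 7 higher and 9 lower after erastin (21.4% and 24.4%), and 6 higher and 9 lower after DHA (7.14% and 9.63%). BHLHE40, a transcription factor gene, was lowered by both agents in sh-LUC and raised by both in sh-IGFBP6 cells, for example from 109 ± 6.70 CPM to 45.6 ± 2.39 with erastin in sh-LUC cells (log2 fold change -1.26 with SE 0.08, edgeR adjusted p = 3.27e-29) and from 22.8 ± 3.50 to 87.2 ± 5.12 with DHA in sh-IGFBP6 cells (1.92, SE 0.099, edgeR adjusted p = 3.26e-36). CCN2 (332 ± 20.7 to 185 ± 2.80 CPM) and FN1 (280 ± 15.8 to 183 ± 7.50 CPM) were among the 4 targets that DHA lowered in sh-IGFBP6 cells.

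**Figure D4:**
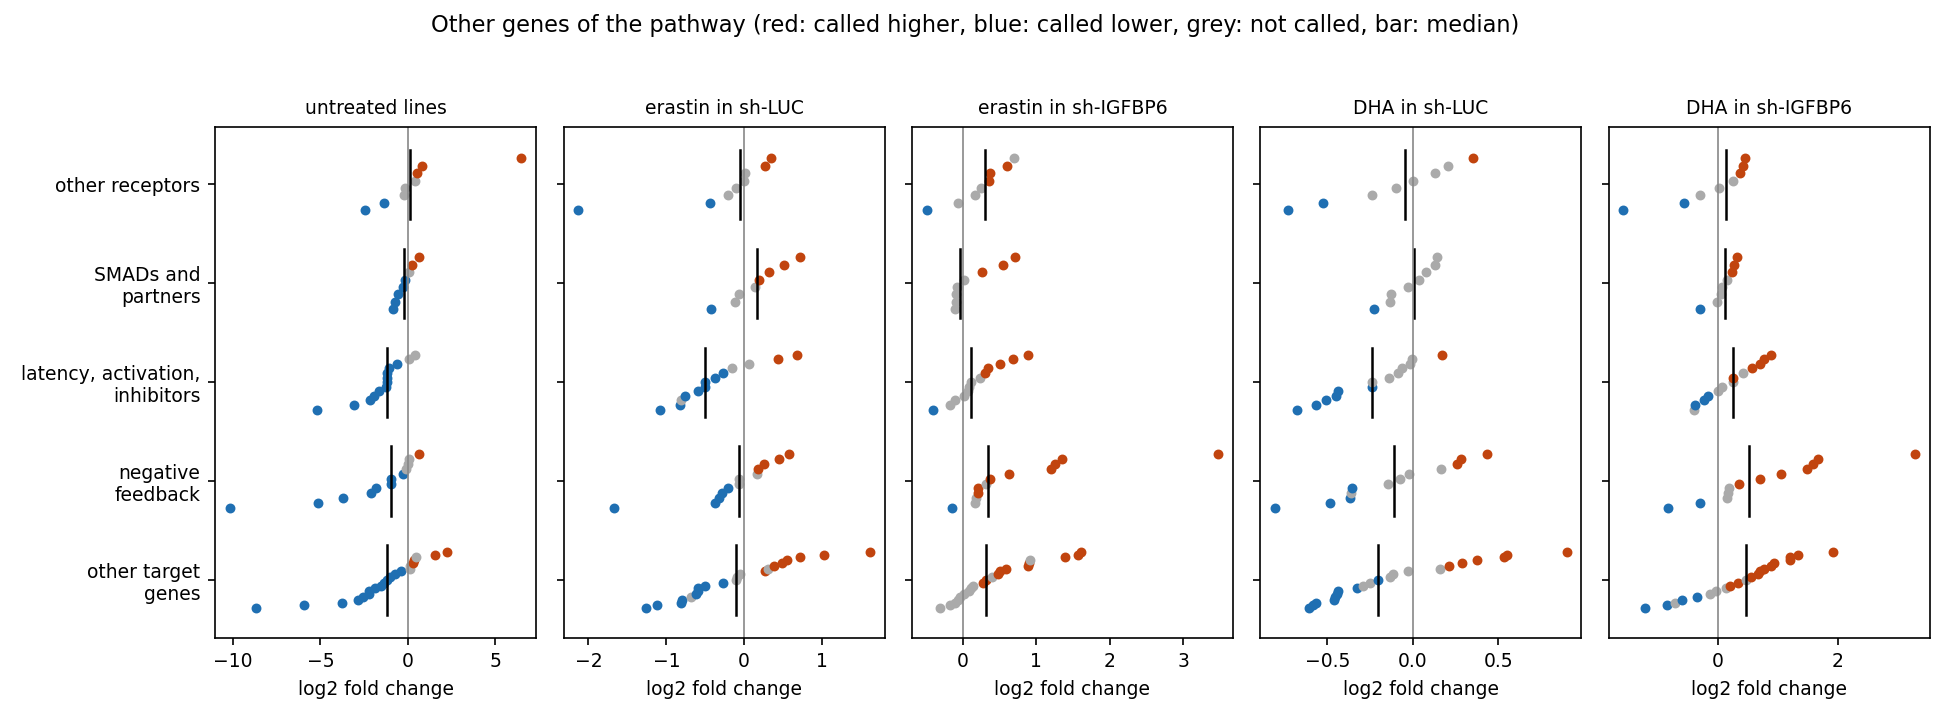
Log2 fold changes of the tested pathway genes other than the 9, by list, for sh-IGFBP6 against sh-LUC cells under vehicle and for each agent in each line (1 point per gene, black bar for the list's median; horizontal scales differ between panels). Most points lie left of 0 between the vehicle-treated lines, and most feedback and target genes lie right of 0 after either agent in sh-IGFBP6 cells; the feedback point farthest out in these 2 panels and in the first is PMEPA1, which rests on 1 count in sh-IGFBP6 vehicle.

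For the 6 genes whose group means spanned more than 1 log2 unit, the 3 genes with the nearest pattern were sought among 11518 genes averaging 5 CPM or more, by the root mean square difference (log2 CPM) of the 6 centred group means. KLF6, a transcription factor gene (0.21), DNAJB9, an endoplasmic reticulum chaperone gene (0.23), and KLHL24 (0.24) were nearest to INHBA. INHBB was followed by CDH11, a cadherin gene (0.27), JCAD (0.32) and COL5A1 (0.36), and FST by KCNAB1 (0.089), ADAMTS16 (0.13) and MINCR (0.13). TGFB2 had more distant neighbours, MEGF6 (0.31), PTPRU (0.40) and CD24 (0.50). Nearest to TGFBR1 were LAMP2, a lysosomal membrane gene (0.068), LTBP1 (0.071) and DAB2IP (0.091), and nearest to TGFBR3 were GBP3 (0.087), GALNT18 (0.13) and IGFBP6 itself (0.17). The likeness is a description over 6 group means and carries no test.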

How the data were processed

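The values deposited by the authors are raw gene counts for 18 libraries, per the labels. Per the submitters' processing notes they come from cutadapt 4.4 for trimming, STAR 2.7.7a for alignment on GRCh38, and featureCounts. No source used here gives the annotation release or strand setting. Of the table's lines, 1 gene with blank counts and 2 lines that name no gene (at most 0.01082% of a library) were left out. Identical columns numbered 0.

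Genes were kept with filterByExpr (minimum count 10, minimum total 15), leaving 15189. edgeR 4.0.16 (R 4.3.3) was fitted with TMM factors and 1 coefficient per group over 18 libraries, using robust quasi-likelihood tests with Benjamini-Hochberg adjustment. The biological coefficient of variation was 6.29%. Each SE was derived from F, or, where F was under 1, from the p-value through a normal quantile. The 95% intervals used 12 degrees of freedom. Exon lengths and positions are from GENCODE release 29, and start-site windows from RefSeq. For log2 patterns 0.5 CPM was added.

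The 9 genes, the pathway lists and the comparisons were chosen with earlier results of these data known. Named pathway genes are, per list and comparison described, drawn from up to 4 called with the smallest p and those called against their list's majority; 1 gene so chosen is not reported here. Nearest patterns are named, 3 each, for genes spanning over 1 log2 unit. Lists are described by counts and medians, without a set test. The fit was also run on counts simulated from its own means and dispersions. Such a run cannot show how the fit does on the real spread, and no result here rests on it. Alternatives were other scalings, filters, DESeq2 1.42.0, a replicate block, fits to the compared groups only, and each library left out.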

Additional observations from a re-analysis of the deposited data

Results flagged for a closer look

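The responses listed here were singled out because they differed between the sh-IGFBP6 and sh-LUC lines in a direct edgeR test of the difference (adjusted p below 0.05). Each value is the log2 fold change in sh-IGFBP6 cells minus that in sh-LUC cells. For the feedback and target genes the erastin differences are given with the third sh-IGFBP6 erastin library only. With 3 libraries a group, single libraries were not tested as outliers.

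For erastin, the difference was 0.76 for INHBA, -0.77 for FST, 0.82 for TGFB1, 0.73 for TGFBR1, 0.42 for TGFBR2 and 0.40 for TGFBI. Without the third sh-IGFBP6 erastin library these values were 0.73, -0.79, 0.80, 0.73, 0.42 and 0.37. FST, TGFB1 and TGFBR1 were called in opposite directions in the lines. For DHA it was 2.24 for INHBA, again with opposite directions, then -0.88 for FST, 0.32 for TGFB1, -0.50 for TGFBR2 and 0.38 for TGFBI.

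Of the other pathway genes, up to 4 with the smallest p are given per list. Among the latency and extracellular genes the erastin difference was 1.34 for LTBP3, 0.72 for LTBP1, 0.66 for FURIN and 1.19 for NRROS. Without the third library these values were 1.33, 0.705, 0.64 and 1.17. The DHA difference was 1.56 for LTBP3, 1.13 for LTBP2, 1.06 for FSTL3 and 0.59 for ITGAV. The feedback genes gave 1.42 for SKIL, 1.52 for SMAD7, 1.99 for SMAD6 and 0.50 for SKI with erastin. With DHA they gave 2.07 for SKIL, 2.02 for SMAD7, 0.62 for TGIF1 and 0.42 for SKI. Among the target genes the erastin difference was 2.17 for BHLHE40, 1.48 for KLF10, 0.92 for ADAM19 and -0.72 for IL11, and the DHA difference was 2.36 for BHLHE40, 1.07 for JUNB and 0.90 for KLF10. SMAD6 stood at 3.87 ± 0.559 CPM in sh-IGFBP6 cells under vehicle and at 7.07 ± 3.90 CPM after erastin (4.90 without the third library), so its ratio rests on few counts.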

How the results depend on the processing

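Of 76 results for the 9 genes, 49 kept their call and direction in all 27 alternatives, and of 2052 values 1993 did so, 47 lost a call, 11 gained one and 1 turned. The turned value was TGFB1 after erastin in sh-IGFBP6 cells at -0.073 under scaling by library size only. Under that scaling the genes called numbered 5 of 9 (8 in the reported fit) for erastin in sh-LUC, 2 (6) for erastin in sh-IGFBP6, 4 (7) for DHA in sh-IGFBP6, 2 (6) and 2 (5) for the differences between lines in the erastin and DHA responses, and 1 (3) for DHA against erastin in sh-IGFBP6. Chosen after seeing the data, the same scaling without sh-IGFBP6 erastin replicate 3 gave 3 for the difference in the DHA response and counts within 1.5 times elsewhere. Without a filter that difference was also called for 3. The lost calls there were TGFB1 and TGFBI (adjusted p = 0.0734 and 0.0522 with library size only and no replicate 3, 0.185 and 0.0973 without a filter). Leaving out 1 library gave 8 to 8 called for erastin in sh-LUC, 4 to 4 for DHA in sh-LUC, 5 to 6 for erastin in sh-IGFBP6, 6 to 7 for DHA in sh-IGFBP6, 7 to 7 between untreated lines, 6 to 7 and 5 to 6 for the differences between lines, and 7 to 7 and 3 to 4 for DHA against erastin.

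Libraries were not treated as paired by replicate number: in 0 of 15 pairs of groups did all same-numbered libraries correlate above 0.1 (range -0.073 to 0.157). This rule cannot show that pairing is absent. In some pairs of groups each library correlated best with its own number, as for sh-LUC vehicle and sh-LUC DHA (0.106, 0.019 and 0.099). With the replicate block, 3 results changed their call: TGFBR3 after DHA in sh-IGFBP6 cells (-0.51, adjusted p = 0.052), the TGFBR1 difference in the DHA response (0.27, 0.0478) and TGFBR1 in DHA against erastin in sh-IGFBP6 cells (-0.24, 0.0257). Over all genes, library size only against the reported fit called 4571 against 6967 for erastin in sh-LUC (31.9% against 46.7% of them higher), 756 against 2546 for DHA in sh-LUC, 2728 against 4404 for erastin in sh-IGFBP6 (23.1% against 50.5% higher), 2579 against 5202 for DHA in sh-IGFBP6 (33.3% against 50.8%), 1327 against 3973 and 1041 against 3124 for the differences in the erastin and DHA responses (the latter 26.5% against 50.6%), and 1541 against 3928 for DHA against erastin in sh-IGFBP6 (63.1% against 50.6%). In sh-LUC DHA against erastin was 73.5% against 51.8% higher. DESeq2 called 1555, 2068 and 2422 for DHA in sh-LUC, the difference in the DHA response and DHA against erastin in sh-IGFBP6. For the last of these, the edgeR fit without sh-IGFBP6 erastin replicate 1 called 2592. Without a filter, 59.6% against 42.6% of DHA calls in sh-LUC were higher, and 32.3% against 50.6% for the difference in the DHA response. Library size only moved the median of all genes to -0.12 and -0.18 for erastin in sh-LUC and sh-IGFBP6, 0.10 between untreated lines, -0.14 for the difference in the DHA response and 0.17 for DHA against erastin in sh-LUC. The cause was not tested. Low counts limit INHBB, TGFB2 and TGFBR3 in sh-IGFBP6 cells.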
